A study of Mus musculus with 9 samples.

Results

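The genes described here are 10 osteoclast-associated genes, Tnfrsf11a, Oscar, Calcr, Nfatc1, Mitf, Dcstamp, Ocstamp, Atp6v0d2, Ctsk and Acp5, among 24411 gene symbols measured by bulk RNA-seq in macrophage lines of 3 origins. They were taken by symbol, and all 10 were in the table. The set was chosen by the Ctsk values of the YS to BM comparison, in which Ctsk had the largest fall. For this reason the YS to BM difference is given for all genes as a description with no test, and Ctsk was not tested in any comparison.

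All lines were grown from cells of C57BL/6 mice with no labelled genetic change, in medium with recombinant human macrophage colony-stimulating factor (M-CSF). YS lines came from the yolk sac of early embryos, FL lines from the fetal liver of later embryos, and BM lines from the bone marrow of adult mice, with 3 lines and 1 library per line in each group. A line was the bulk culture of a separate dish or well and not a clone. The starting cells were pooled from more than 1 mouse, so a p-value measures the spread among cultures and not among animals. The methods name no receptor activator of NF-κB ligand (RANKL) in the culture of these lines.

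Osteoclasts are the multinucleated cells that dissolve bone, and they form from myeloid precursors that receive M-CSF and RANKL. RANKL acts on its receptor RANK, encoded by Tnfrsf11a, and together with signals from immunoreceptor tyrosine-based activation motif (ITAM) adaptors, some of them reached through the receptor OSCAR, it induces NFATc1, the main transcription factor of the program. NFATc1 acts with AP-1, PU.1 and MITF on genes for cell fusion (Dcstamp, Ocstamp, Atp6v0d2) and for bone resorption (Ctsk, Acp5). The calcitonin receptor, Calcr, marks the mature cell. Macrophages share the precursor and express part of this gene set.

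Values are given as TPM, a unit that corrects reads for the length of the transcript and brings every library to one total, so that levels may be compared between genes. TPM keep no read number, the depth is unknown, and precision was judged from the 3 lines of each group. Differences are between group means of log2(TPM + 1), which understates the change of genes with low TPM. Of the 24411 genes, 11753 reached 1 TPM in at least 3 of the 9 libraries and were tested with limma in one fit over all libraries. A gene was called when the adjusted p was under 0.1 and the difference was more than 2-fold. Of the 10 members, 6 passed this filter (Tnfrsf11a, Nfatc1, Mitf, Dcstamp, Atp6v0d2 and Ctsk), and Oscar, Calcr, Ocstamp and Acp5 did not.

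The macrophage label was checked first. All 9 macrophage markers were present, with sums of 4394 to 9490 TPM in the YS lines, 11980 to 28720 TPM in the FL lines and 11900 to 13470 TPM in the BM lines. Fcgr1 was low in BM lines (5.47, 42.1 and 1.68 TPM in lines 1, 2 and 3) and higher in FL than in BM lines (4.02 on the log2 scale, limma adjusted p = 0.014). Mertk was also higher in FL than in BM lines (1.99, adjusted p = 0.0059) and was lower in YS than in FL lines (-1.82, adjusted p = 0.032), as was Lyz2 (-2.37, adjusted p = 0.048). None of 5 lymphoid markers reached 1 TPM in any library, and 2 of 10 stromal and osteoblast markers did (Runx2 and Bglap), with the other defining markers of osteoblasts near 0. Runx2 was called lower in FL than in BM lines (-1.545, adjusted p = 0.019). The summed level of the stromal and osteoblast list was 6.23 to 9.36 TPM in the YS lines, 1.1 to 3.45 TPM in the FL lines and 8.23 to 10.18 TPM in the BM lines. Of 6 endothelial and epithelial markers, 3 reached 1 TPM (Cdh5, Kdr and Afp), with sums of 6.94 to 56.93 TPM in the YS lines, 27.63 to 72.28 TPM in the FL lines and 3.13 to 12.44 TPM in the BM lines. Kdr (4.35, adjusted p = 0.032) and Cdh5 (1.1, adjusted p = 0.037) were called higher in FL than in BM lines, and Afp was not called. Of 7 neutrophil and progenitor markers measured, S100a8 and Cd34 reached 1 TPM and 3 (Elane, Ngp and S100a9) were at 0 in all lines, with sums of 1.53 to 18.63 TPM in the YS lines, 11.69 to 43.95 TPM in the FL lines and 3.66 to 5.0 TPM in the BM lines, and S100a8 was called in both tested comparisons (FL against BM 1.98, adjusted p = 0.018; YS against FL -3.53, adjusted p = 0.010). Of 4 dendritic cell markers, 1 (Zbtb46) reached 1 TPM and 2 (Flt3 and Cd209a) were at 0 in all lines, with sums of 6.82 to 7.8 TPM in the YS lines, 2.57 to 6.59 TPM in the FL lines and 2.82 to 3.24 TPM in the BM lines. The part of these markers in the differences below was not tested. In bulk RNA, fewer cells of a type and less RNA per cell cannot be told apart. BM line 2 stood apart from the other BM lines: it held hemoglobin transcripts (Hba-a1 at 214.99 TPM), and 45 genes with a TPM below 0.5 in the other BM lines and of at least 20 in YS line 2 were present in it at a median of 14.1% of their level in YS line 2. The calls and differences of the tested members in FL against BM lines, and the Ctsk differences, were therefore also computed without BM line 2.

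Promoter sequence of Ctsk and Acp5, the pair of resorption genes, is shown because NFATc1, MITF and PU.1 are their textbook activators and the measured levels of these factors follow. The windows are the 250 bases before a start site from RefSeq (GRCm38.p6), written 5′ to 3′ on the gene's strand with motif matches in capitals. The Ctsk window is chr3:95498960-95499209 (+ strand), and the Acp5 window, the last of its 3 annotated starts, is chr9:22130599-22130848 (- strand). The bases just after this Acp5 start, unlike its other starts, were found near the beginning of an Acp5 transcript in the GENCODE annotation. Those after the Ctsk start were not found in this way for Ctsk, so distances in its window rest on the RefSeq start alone.
Ctsk: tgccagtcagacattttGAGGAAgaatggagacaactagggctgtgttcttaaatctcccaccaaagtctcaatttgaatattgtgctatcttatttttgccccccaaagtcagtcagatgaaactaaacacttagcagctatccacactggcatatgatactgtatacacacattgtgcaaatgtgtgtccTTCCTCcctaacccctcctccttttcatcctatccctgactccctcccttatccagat
Acp5: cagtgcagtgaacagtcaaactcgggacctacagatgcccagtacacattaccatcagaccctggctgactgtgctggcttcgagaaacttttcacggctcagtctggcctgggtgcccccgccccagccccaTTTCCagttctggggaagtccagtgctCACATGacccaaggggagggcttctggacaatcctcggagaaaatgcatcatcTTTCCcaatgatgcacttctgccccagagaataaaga
Motifs were searched on both strands as E-box (CACGTG), M-box core (CATGTG), NFAT core (GGAAA), PU.1 core (GAGGAA) and AP-1 (TGAGTCA). The capitals in the Ctsk window are a pair of PU.1 cores, at 233 to 228 and 58 to 53 bases before the start, and no other motif was matched. Those in the Acp5 window are an M-box core at 90 to 85 bases and NFAT cores at 117 to 113 and 37 to 33 bases. Among all 32851 windows of this length, 23.3% held the PU.1 core, 12.3% the M-box core, 55.6% the NFAT core, 6.02% the E-box and 4.46% the AP-1 site, so such matches are common and describe letters only.

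The receptors of the program were unequal in level. Tnfrsf11a, which encodes RANK, was expressed in every line: 54.32, 51.81 and 33.15 TPM in the YS lines 1 to 3, 46.49, 50.95 and 42.49 TPM in the FL lines, and 39.56, 36.57 and 38.2 TPM in the BM lines. The FL lines all lay above the BM lines, while YS line 3 lay below both groups. The difference of FL from BM lines was 0.28 on the log2 scale (SE 0.18, 95% interval -0.13 to 0.69, adjusted p = 0.32), and that of YS from FL lines was -0.04 (-0.45 to 0.38, adjusted p = 0.92), so neither passed the test. The group means of YS and BM lines differed by 0.25, and these groups overlapped.

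Oscar and Calcr were at or near 0. Oscar, a receptor that signals through the ITAM adaptor FcRγ, was listed at 0, 0 and 0.2 TPM in the YS lines, 0.18, 0.15 and 0.25 TPM in the FL lines and 0, 0.23 and 0.17 TPM in the BM lines. Its groups overlapped in FL and BM lines (exact permutation test, two-sided, p = 0.6) and in YS and FL lines (exact p = 0.3), in a design that cannot reach below p = 0.1. Calcr was listed at 0 in 8 of the 9 libraries and at 0.04 TPM in FL line 3 (exact permutation p = 1.0 for both comparisons).

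The transcription factor Nfatc1 was at a higher level in BM lines than in either group of embryonic origin. It was at 64.55, 65.63 and 59.32 TPM in the YS lines, 59.95, 54.42 and 61.64 TPM in the FL lines, and 109.93, 92.81 and 114.34 TPM in the BM lines. Every BM line lay above every other line, and YS and FL lines overlapped. FL lines differed from BM lines by -0.83 on the log2 scale (SE 0.11, 95% interval -1.09 to -0.58, adjusted p = 0.0019), which passed the false discovery rate but at 1.78-fold did not reach the 2-fold threshold, so the gene was not called. YS lines differed from FL lines by 0.11 (-0.15 to 0.36, adjusted p = 0.58), and from BM lines by -0.73 (no test).

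Mitf, a basic helix-loop-helix factor that works with PU.1 on osteoclast genes, had a like pattern with more spread. YS lines held 37.6, 29.87 and 20.89 TPM, FL lines 20.54, 18.29 and 30.28 TPM, and BM lines 45.33, 40.03 and 42.78 TPM. The BM lines were again the highest, and YS and FL lines overlapped. FL lines differed from BM lines by -0.89 (SE 0.24, 95% interval -1.43 to -0.36, adjusted p = 0.031), or 1.86-fold, and YS from FL lines by 0.34 (-0.20 to 0.87, adjusted p = 0.40). The FL to BM difference passed 2-fold when the log2 values were quantile normalized (-1.01, adjusted p = 0.017) and without FL line 3 (-1.10, adjusted p = 0.021). It no longer passed the false discovery rate without BM line 1 (-0.85, adjusted p = 0.11) and with no filter (adjusted p = 0.10). Without BM line 2, the FL to BM differences were 0.25 for Tnfrsf11a, -0.93 for Nfatc1 and -0.94 for Mitf, and no call of these genes changed.

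Mitf is one of 4 MiT/TFE family genes, whose products form dimers with each other and bind E-boxes. Tfe3 was the most abundant of them in 8 of 9 lines, and Tfec was in YS line 1. Tfe3 ranged from 56.08 to 77.01 TPM in the YS lines, 91.57 to 102.39 TPM in the FL lines and 77.37 to 81.71 TPM in the BM lines. The difference of Tfe3 between YS and FL lines (-0.47, adjusted p = 0.071) and that between FL and BM lines (0.26, adjusted p = 0.20) were under 2-fold. Tfec ranged from 46.38 to 70.53 TPM and Tfeb from 11.39 to 35.07 TPM over all lines, and neither passed the test in a comparison. The 4 genes summed to 158 to 211 TPM per line. The share of Mitf in this sum was 19.3%, 17.7% and 13.3% in YS lines, 10.2%, 9.31% and 15.4% in FL lines, and 21.5%, 20.3% and 20.3% in BM lines.

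**Figure D1:**
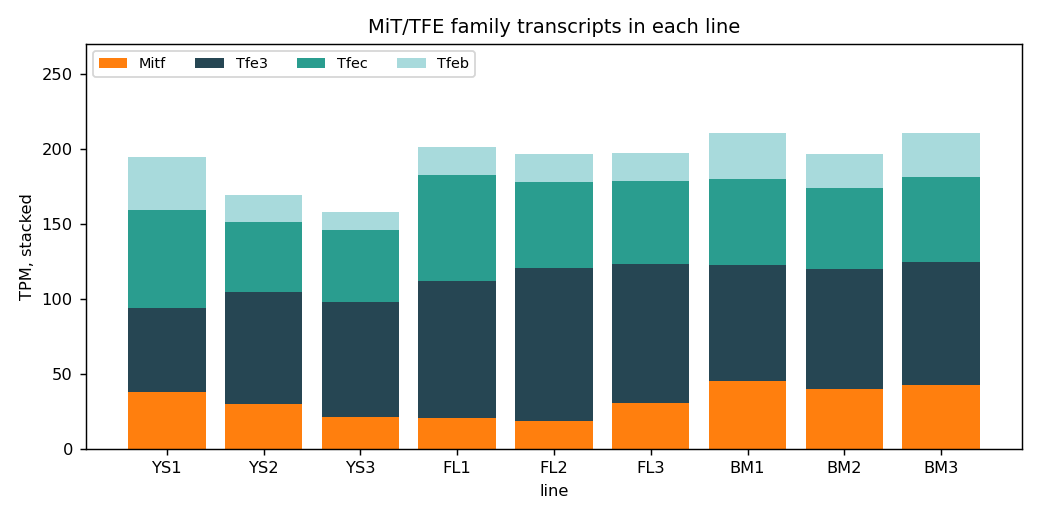
Stacked TPM of Mitf, Tfe3, Tfec and Tfeb in each of the 9 lines (1 bar per line, linear axis from 0). The Mitf segment was between 40.03 and 45.33 TPM in the BM lines and between 18.29 and 37.6 TPM in the others, while the total stayed between 158 and 211 TPM.

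Among the fusion genes, Dcstamp was nearly absent from FL lines alone. Dcstamp encodes DC-STAMP, a multi-pass membrane protein needed for osteoclasts and giant cells to fuse. It was at 44.01, 28.68 and 5.16 TPM in the YS lines, 0.1, 0.08 and 0.55 TPM in the FL lines, and 3.46, 6.15 and 5.19 TPM in the BM lines. The FL lines were all below 1 TPM and every other line was above 3 TPM; YS lines 1 and 2 were the highest, and YS line 3 lay within the range of BM lines. Dcstamp was higher in YS than in FL lines by 4.04 on the log2 scale (SE 0.64, 95% interval 2.59 to 5.49, adjusted p = 0.020), or 16.5-fold, and the call was kept when any 1 line was left out. It was lost when only YS and FL lines entered the fit (adjusted p = 0.11).

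Dcstamp was also lower in FL than in BM lines (-2.25 on the log2 scale, SE 0.64, 95% interval -3.70 to -0.80, adjusted p = 0.039), or 4.75-fold. This call was lost without FL line 1 (adjusted p = 0.10), BM line 2 (adjusted p = 0.11) or BM line 3 (adjusted p = 0.12), with a pseudocount of 4 (-1.06, adjusted p = 0.18) and with no filter (adjusted p = 0.15), while the log2 difference without a line stayed between -2.44 and -2.10. The call was kept with only FL and BM lines in the fit (limma adjusted p = 0.0023) and without YS line 3 (adjusted p = 0.0018). The group mean of YS lines was 1.79 above that of BM lines, with overlapping groups.

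Ocstamp, which encodes the related fusion protein OC-STAMP, was low and uneven. It was listed at 3.7, 0.63 and 0.09 TPM in the YS lines, 0.08, 0 and 0.08 TPM in the FL lines and 0.23, 0.07 and 0.31 TPM in the BM lines. Only YS line 1 exceeded 1 TPM, and this line also had the highest Dcstamp. All YS lines lay above all FL lines, with a difference of 0.95 on the log2 scale and an exact permutation p = 0.1, the smallest this design allows (FL against BM lines, exact p = 0.3). YS line 3, at 0.09 TPM, was above the highest FL value, 0.08 TPM, only in the last digit listed, so this order is not read as a difference. In this comparison the groups did not overlap for 26.1% of all genes tested.

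Atp6v0d2 encodes the d2 subunit of the vacuolar proton pump (V-ATPase), which is enriched in osteoclasts and serves fusion. It was at 4.59, 2.18 and 0.5 TPM in the YS lines, 2.94, 3.13 and 3.11 TPM in the FL lines, and 14.89, 6.34 and 23.82 TPM in the BM lines. BM lines were the highest, YS lines lay on both sides of FL lines, and BM line 2 was the lowest BM line. The FL to BM difference was -1.81 (SE 0.53, 95% interval -3.02 to -0.61, adjusted p = 0.044), or 3.51-fold lower in FL lines. The call was lost without FL line 1 or FL line 3 (adjusted p = 0.10 for each), BM line 1 (adjusted p = 0.14) or BM line 3 (-1.41, adjusted p = 0.16) and with no filter (adjusted p = 0.16), and it was kept without BM line 2 (-2.29, adjusted p = 0.024). YS lines differed from FL lines by -0.44 (-1.65 to 0.77, adjusted p = 0.62), and from BM lines by -2.25 (no test), 4.77-fold lower, with groups that did not overlap (-2.73 without BM line 2).

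Transcripts of Atp6v0d1, the paralog found in most cells, far outnumbered those of Atp6v0d2 in every line. It ranged from 179.9 to 268.82 TPM in the YS lines, 273.14 to 362.6 TPM in the FL lines and 246.7 to 288.32 TPM in the BM lines, and its 2 tested differences were under 2-fold. The share of Atp6v0d2 in the sum of both paralogs was 1.68%, 0.914% and 0.277% in YS lines, 1.06%, 0.856% and 0.851% in FL lines, and 5.69%, 2.37% and 7.63% in BM lines.

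Ctsk, the gene on which the set was chosen, encodes cathepsin K, the protease with which osteoclasts degrade bone collagen. It was at 0.28, 0.49 and 0.34 TPM in the YS lines, 0.84, 1.02 and 3.24 TPM in the FL lines, and 333.37, 90.21 and 1270.2 TPM in the BM lines. The lowest BM line was 27.8 times the highest FL line and 184 times the highest YS line. All FL lines lay above all YS lines, and groups did not overlap in this comparison for 26.1% of all genes tested. The YS lines were at 0.49 TPM or less, so the ratio of 184 and the order of FL and YS lines rest on values near 0. In BM lines Ctsk was uneven: BM line 3 held 3.81 times the level of BM line 1 and 14.1 times that of BM line 2. Its standard deviation over BM lines, 1.90 on the log2 scale, was larger than that of 99.6% of the genes tested. By rank of level within a line, Ctsk was gene 449, 2012 and 101 in BM lines 1, 2 and 3. Described without a test, the differences of group means were -7.95 for YS against BM lines, -7.08 for FL against BM lines and -0.88 for YS against FL lines. Without BM line 2 the first of these was -8.90 and the second -8.02.

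Acp5, which encodes tartrate-resistant acid phosphatase (TRAP), the classical stain for osteoclasts, did not share this pattern. It was listed at 6.86, 0.69 and 0 TPM in the YS lines, 0, 0.1 and 0.12 TPM in the FL lines, and 1.58, 0.11 and 0.8 TPM in the BM lines. The highest value was in YS line 1, and in BM line 3, where Ctsk was at 1270.2 TPM, Acp5 was at 0.8 TPM. The groups overlapped in FL and BM lines (exact permutation p = 0.2) and in YS and FL lines (exact permutation p = 0.4).

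**Figure D2:**
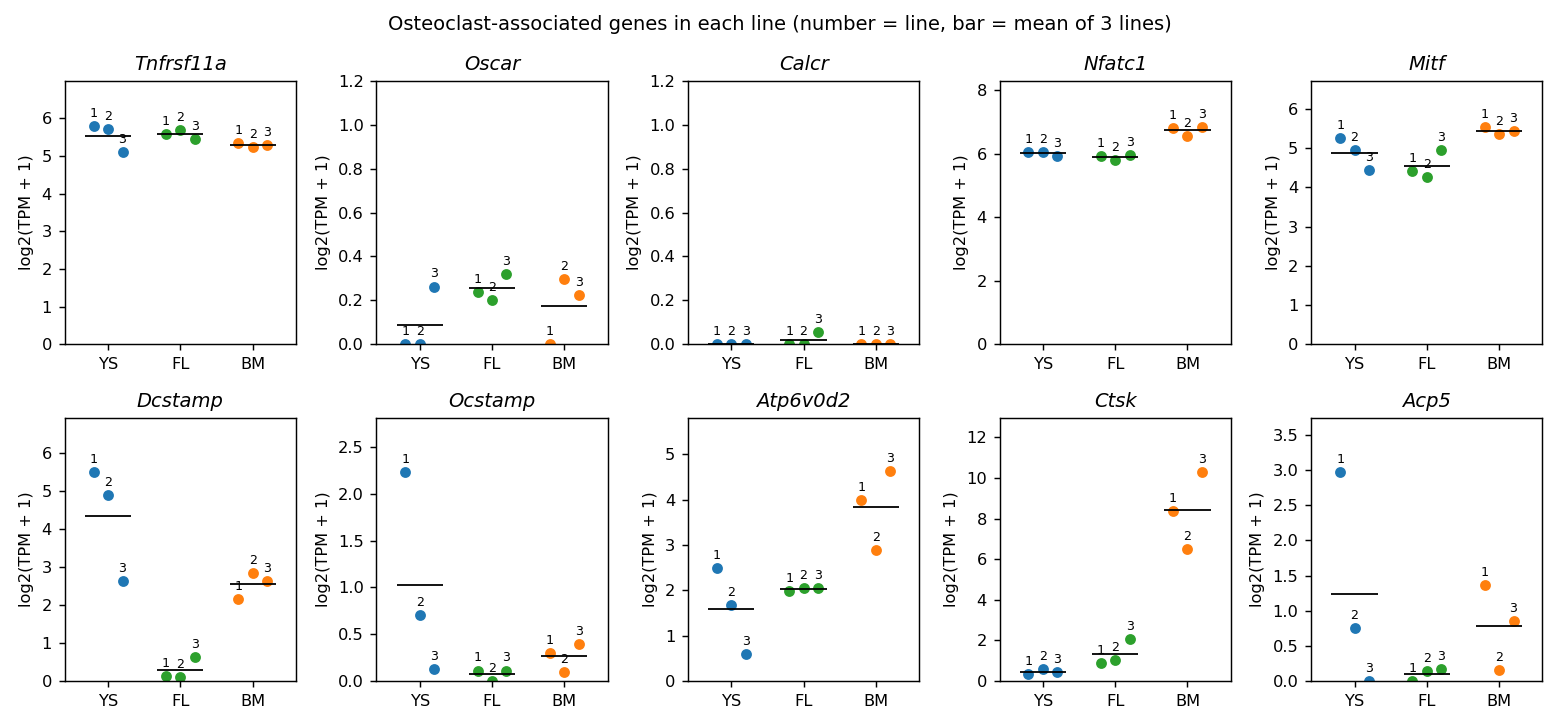
Level of each of the 10 genes in each line as log2(TPM + 1), with numbered points for lines 1 to 3, horizontal bars for the mean of the 3 lines, and a separate vertical scale from 0 in each panel. Ctsk was at 90.21 TPM or more in every BM line and at 3.24 TPM or less elsewhere, Tnfrsf11a was between 33.15 and 54.32 TPM in all lines, and Calcr was at 0 in all lines but FL line 3.

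Leaving Ctsk aside, 5 members were tested. In FL against BM lines, 2 of them were called, both lower (Dcstamp and Atp6v0d2), where 10.3% of all genes tested were called, 6.01% higher and 4.3% lower. At any fold, 4 of them passed the false discovery rate (27.6% of all genes did), though Mitf, Dcstamp and Atp6v0d2 did not under every alternative, and all 5 had groups that did not overlap (49.5% of all genes). In YS against FL lines, 1 of them was called, higher (Dcstamp), against 3.79% of all genes called, 1.95% higher and 1.85% lower. No further member passed the false discovery rate at any fold there (12.8% of all genes did), and Dcstamp alone of the 5 had groups that did not overlap (26.1% of all genes). In YS against BM lines, 2 of the 6 members that passed the filter, Ctsk and Atp6v0d2, were more than 2-fold apart with groups that did not overlap, as were 13.0% of all genes (7.5% higher and 5.53% lower), and nothing is read from this count since the set was chosen on this comparison. The groups did not overlap for Nfatc1 and Mitf either (49.0% of all genes). These comparisons share lines: the YS and BM lines on which the set was chosen enter 1 side of each tested comparison.

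**Figure D3:**
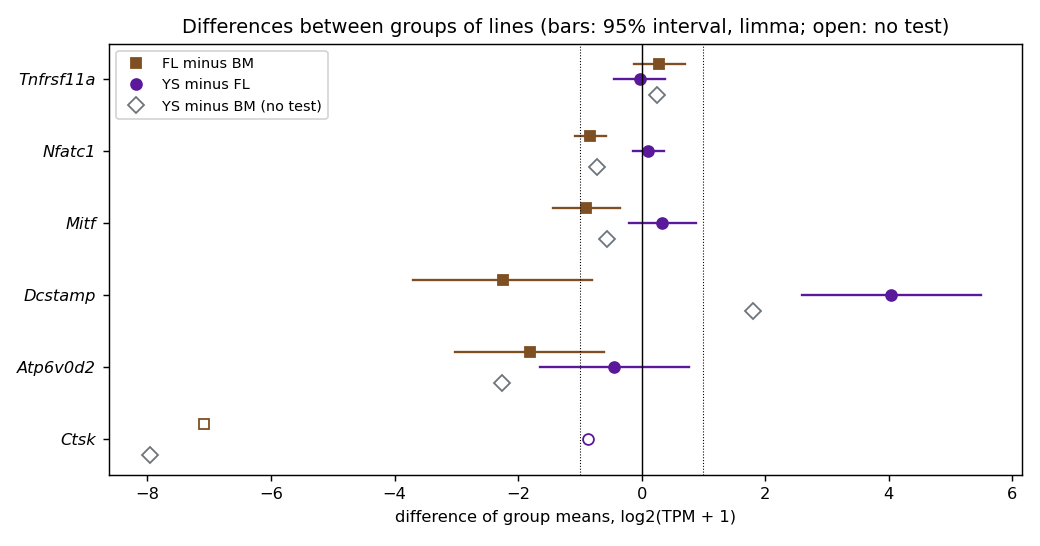
Difference of group means of log2(TPM + 1) for the 6 members that passed the filter on low values, with 95% limma intervals as bars where a test was made and open symbols where none was made (dotted lines mark 2-fold). Dcstamp lay at -2.25 for FL minus BM lines and 4.04 for YS minus FL lines, while Ctsk lay at -7.08 and -7.95 against BM lines.

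The spread among lines also differed by gene. YS line 1 was the highest and YS line 3 the lowest YS line for Tnfrsf11a, Mitf, Dcstamp and Atp6v0d2, 4 of 6 members tested, and 27.1% of all genes tested had this order. The standard deviation of Dcstamp over YS lines, 1.51 on the log2 scale, was larger than that of 97.8% of genes, and that of Nfatc1, 0.08, was larger than that of 6.49%. BM line 2 was the lowest BM line for 5 of 6 members tested, all but Dcstamp, and for 35.8% of all genes.

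The genes closest to Ctsk in pattern were Rgs16, Ndrg4, Kirrel3, Gsta3 and Fgfr1, with root mean square differences of centered log2(TPM + 1) of 1.08, 1.10, 1.28, 1.33 and 1.53 over the 9 libraries. Rgs16, a regulator of G protein signaling, was at 218.28, 197.12 and 230.58 TPM in the BM lines and at 0.8 TPM or less in the others. Ndrg4 was at 293.08 to 389.97 TPM in the BM lines and at 2.96 to 6.79 TPM in the FL lines, and Gsta3, a glutathione S-transferase, was at 210.46 to 284.44 TPM in the BM lines. All 5 were far steadier over BM lines than Ctsk, since Rgs16 varied from 197.12 to 230.58 TPM where Ctsk varied from 90.21 to 1270.2 TPM. BM line 2 was the lowest BM line for each of the 5, as for Ctsk and for 35.8% of all genes tested. The 5 were picked for closeness over these same lines, which favors a shared order, so nothing is read from it.

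**Figure D4:**
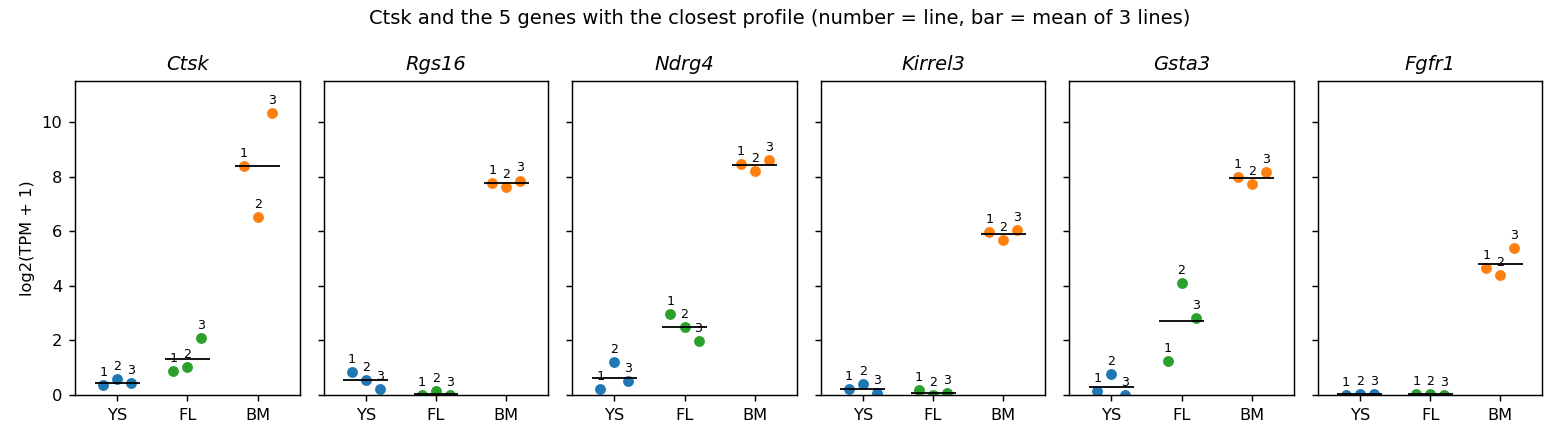
Ctsk and the 5 genes with the closest pattern in each line as log2(TPM + 1) on a shared vertical scale, with numbered points for lines 1 to 3 and horizontal bars for group means. Each gene was highest in the 3 BM lines, and the BM points of Ctsk, from 90.21 to 1270.2 TPM, were the most spread.

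The other genes of the osteoclast program were taken from 7 lists of 98 genes, of which 81 passed the filter. In FL against BM lines 5 of the 81 were called higher and 10 lower (18.5%, against 10.3% of all genes), and in YS against FL lines 1 was higher and 4 were lower (6.17%, against 3.79%). In YS against BM lines 4 were more than 2-fold higher and 12 lower with groups apart (19.8%, against 13.0%). The median difference of the 81 was 0.00, -0.12 and -0.29 in these comparisons, against 0.09, 0.02 and 0.11 over all genes tested. Leaving out the 2 genes that reached 1 TPM in 1 group only (Src and Itgb3), since such genes pass the filter through the group in which they are high, 14 of 79 genes were called in FL against BM lines (17.7%, against 9.9% of all genes so treated) and 4 of 79 in YS against FL lines (5.06%, against 3.39%). Without BM line 2 the FL to BM count was 13, since Calcrl lost its call and Src could not be fitted, and without BM line 3 it was 8. Of the 15 calls 7 were made whichever line was left out. The YS to FL count was 1 without YS line 1 or FL line 3, 2 without FL line 2 and 3 without BM line 1. In single lists at most 4 genes were called in a comparison, so the counts that follow are descriptions and nothing particular to a list is read from them.

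Upstream of Nfatc1, RANK and ITAM signaling genes were called about as often as all genes: of 21 tested, none was higher and 2 were lower in FL than in BM lines (9.52%, against 10.3% of all genes), and 1 was lower in YS than in FL lines (4.76%, against 3.79%). Tnfsf11, which encodes RANKL itself, was listed at 0 in all 9 libraries. Nfkb2, a subunit of the alternative NF-κB pathway that RANK activates, was at 24.94 to 32.19 TPM in the FL lines and 66.31 to 72.03 TPM in the BM lines (-1.27, adjusted p = 0.0011). Src, the kinase that organizes the actin ring of osteoclasts, was at 0.14 to 0.67 TPM in the FL lines and 5.17 to 7.09 TPM in the BM lines. Src reached 1 TPM in the BM lines alone, so it passed the filter through the group in which it was high, and no p-value is given for it. Ikbkg, the regulatory subunit of the IκB kinase, ranged from 11.88 to 23.52 TPM over YS lines and from 25.92 to 56.79 TPM over FL lines (-1.21, adjusted p = 0.057), and this call was lost without YS line 1 (-0.98, adjusted p = 0.10), FL line 2 (-0.97, adjusted p = 0.16), FL line 3 (adjusted p = 0.16), BM line 1 or BM line 3 (adjusted p = 0.10 for each). By group means, YS lines were more than 2-fold below BM lines for Src and Ikbkg and above them for Tec, a kinase downstream of the ITAM adaptors.

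Of 12 osteoclast transcription factors tested, Fos and Prdm1 were lower and Jun was higher in FL than in BM lines, and none was called in YS against FL lines (10.3% and 3.79% of all genes were called in these comparisons). Fos, the AP-1 subunit without which osteoclasts do not form, was at 33.94 to 80.92 TPM in the YS lines, 26.03 to 46.9 TPM in the FL lines and 145.31 to 198.05 TPM in the BM lines (FL against BM -2.12, adjusted p = 0.0032). Its partner Jun differed the other way, with 167.65 to 206.53 TPM in the FL lines and 81.5 to 93.58 TPM in the BM lines (1.05, adjusted p = 0.0015). That difference was under 2-fold with quantile normalization (0.96), with median-of-ratios scaling (0.95), without FL line 3 (0.97) and without BM line 3 (0.98). Prdm1, which encodes a repressor of anti-osteoclast genes, was at 1.1 to 1.96 TPM in the FL lines and 3.0 to 5.1 TPM in the BM lines (-1.09, adjusted p = 0.034), and the call was lost without FL line 3 (adjusted p = 0.10), BM line 1 (adjusted p = 0.12) or BM line 3 (-0.95, adjusted p = 0.14). YS lines were more than 2-fold below BM lines for Fos and Prdm1. Spi1, which encodes PU.1, was at 364.14 to 456.06 TPM over all lines and passed no test.

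Of 11 repressors of osteoclast formation tested, Irf8 and Id1 were higher in FL than in BM lines and none was lower (18.2%, against 10.3% of all genes called). Irf8, a factor of monocytes that holds Nfatc1 in check, was at 53.35 to 112.48 TPM in the YS lines, 50.17 to 58.65 TPM in the FL lines and 20.78 to 28.47 TPM in the BM lines (FL against BM 1.11, adjusted p = 0.018). A link between the levels of Irf8 and Nfatc1 was not tested. Over YS lines 1 to 3, Irf8 was at 112.48, 61.75 and 53.35 TPM and Nfatc1 at 64.55, 65.63 and 59.32 TPM. Id1, an inhibitor of helix-loop-helix factors, was at 435.74 to 678.71 TPM in the FL lines and 197.28 to 296.08 TPM in the BM lines (1.12, adjusted p = 0.010), which was under 2-fold without FL line 2 (0.97) or BM line 3 (0.94). Id1 was also lower in YS than in FL lines (-1.52, adjusted p = 0.016), the 1 call of 11 there (9.09%, against 3.79% of all genes) and a call kept with any 1 line left out. By group means, YS lines were more than 2-fold above BM lines for Irf8 and below them for Tnfaip3, which encodes the NF-κB inhibitor A20.

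Of 10 further fusion genes, 3 were lower in FL than in BM lines and none was higher (10.3% of all genes were called, 4.3% lower). Tm4sf19, a tetraspan membrane protein of osteoclasts, had the largest FL to BM difference of the 81 genes: it was at 15.9, 5.23 and 0.58 TPM in the YS lines, 0.54, 0.33 and 2.13 TPM in the FL lines, and 47.21, 55.05 and 75.58 TPM in the BM lines (FL against BM -4.99, SE 0.75, adjusted p = 0.0030). YS line 1 was again the highest YS line, as for Dcstamp and Ocstamp. Myo10, a myosin of filopodia, was at 46.0 to 56.07 TPM in the FL lines and 115.68 to 132.27 TPM in the BM lines (-1.26, adjusted p = 0.014). The tetraspanin Cd9 was at 276.43 to 624.2 TPM in the FL lines and 1238.11 to 1702.24 TPM in the BM lines (-1.91, adjusted p = 0.038), and the call was lost without FL line 2 or FL line 3 (adjusted p = 0.11 for each), BM line 1 (adjusted p = 0.13) or BM line 3 (adjusted p = 0.10). Cd44, a hyaluronan receptor and the only 1 of the 10 called in YS against FL lines, ranged from 102.9 to 124.96 TPM over YS lines and from 199.93 to 297.82 TPM over FL lines (-1.04, adjusted p = 0.023), which was under 2-fold without YS line 1 (-0.98) or FL line 3 (-0.84). YS lines were more than 2-fold below BM lines for Tm4sf19, Cd9 and Cd44.

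Of 7 tested genes of attachment and bone resorption, 0 were called in FL against BM lines (10.3% of all genes were). In YS against FL lines 1 was called, Itgb3 (14.3%, against 3.79% of all genes). Itgb3, the β3 chain of the integrin with which osteoclasts hold bone, was at 31.31, 14.58 and 2.47 TPM in the YS lines, and no other line exceeded 0.41 TPM. It reached 1 TPM in the YS lines alone, so it passed the filter through that group, and no p-value is given for it. Clcn7, the chloride transporter that accompanies the proton pump, was more than 2-fold lower in YS than in BM lines by group means (56.76 to 80.4 against 152.48 to 199.55 TPM). Mmp9, a collagenase abundant in osteoclasts, did not pass the filter, with 1.68, 0.4 and 9.61 TPM in the BM lines and 0.38 to 0.87 TPM in the others. BM line 3 was the highest and BM line 2 the lowest BM line for Mmp9, as for Ctsk. Mmp9 was picked with its values in view, and BM line 2 was the lowest BM line for 35.8% of all genes tested. Nothing is therefore read from this shared order.

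The V-ATPase, which acidifies the space under the osteoclast, had 2 subunit genes higher and 2 lower of 18 tested in FL against BM lines (22.2%, against 10.3% of all genes). Tcirg1, the a3 subunit on which bone resorption depends, was at 136.33 to 253.39 TPM in the FL lines and 349.48 to 411.75 TPM in the BM lines (-1.02, adjusted p = 0.0085), and was under 2-fold without FL line 2 (-0.80) or BM line 3 (-0.97). Atp6v1g1 was at 569.95 to 732.24 TPM in the FL lines and 1240.46 to 1514.22 TPM in the BM lines (-1.05, adjusted p = 0.0029), and was under 2-fold without FL line 1 (-0.94) or BM line 1 (-0.97). Its paralog Atp6v1g2, known from neurons, differed the other way (1.95, adjusted p = 0.00071), at 4.36 to 5.17 TPM in the FL lines and 0.31 to 0.67 TPM in the BM lines. Atp6ap2, an accessory subunit, was at 269.28 to 333.85 TPM in the FL lines and 130.14 to 139.83 TPM in the BM lines (1.19, adjusted p = 0.0059). In YS against FL lines 1 of 18 was called (5.56%, against 3.79% of all genes): Atp6v0c was lower (-2.00, limma adjusted p = 0.061). This call was lost without YS line 1 (adjusted p = 0.12), YS line 3 (adjusted p = 0.10), FL line 2 (adjusted p = 0.16), FL line 3 (adjusted p = 0.17) or BM line 1 (adjusted p = 0.10). Near-identical copies of this gene can share its reads, and their part in this difference was not tested. YS lines were more than 2-fold below BM lines for Atp6v1g1 and Atp6v0c and above them for Atp6v1g2.

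Of the calcitonin peptides and receptor partners, 2 of 6 passed the filter. Of these 2, Calcrl was called in FL against BM lines (50.0%, against 10.3% of all genes) and none in YS against FL lines (3.79% of all genes were). Calcrl, a relative of Calcr that binds calcitonin gene-related peptide and adrenomedullin, was at 2.84, 32.72 and 38.91 TPM in the YS lines, 27.33, 17.77 and 19.24 TPM in the FL lines, and 115.42, 94.26 and 114.51 TPM in the BM lines. It was lower in FL than in BM lines (-2.30, SE 0.76, adjusted p = 0.066), but leaving out any 1 of the FL or BM lines gave adjusted p-values of 0.11 to 0.17, which did not pass. The call was also lost with no filter (limma adjusted p = 0.22). It was kept with only FL and BM lines in the fit (adjusted p = 0.00089) and without YS line 1 (adjusted p = 0.00042). By group means, YS lines were more than 2-fold below BM lines for Calcrl.

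**Figure D5:**
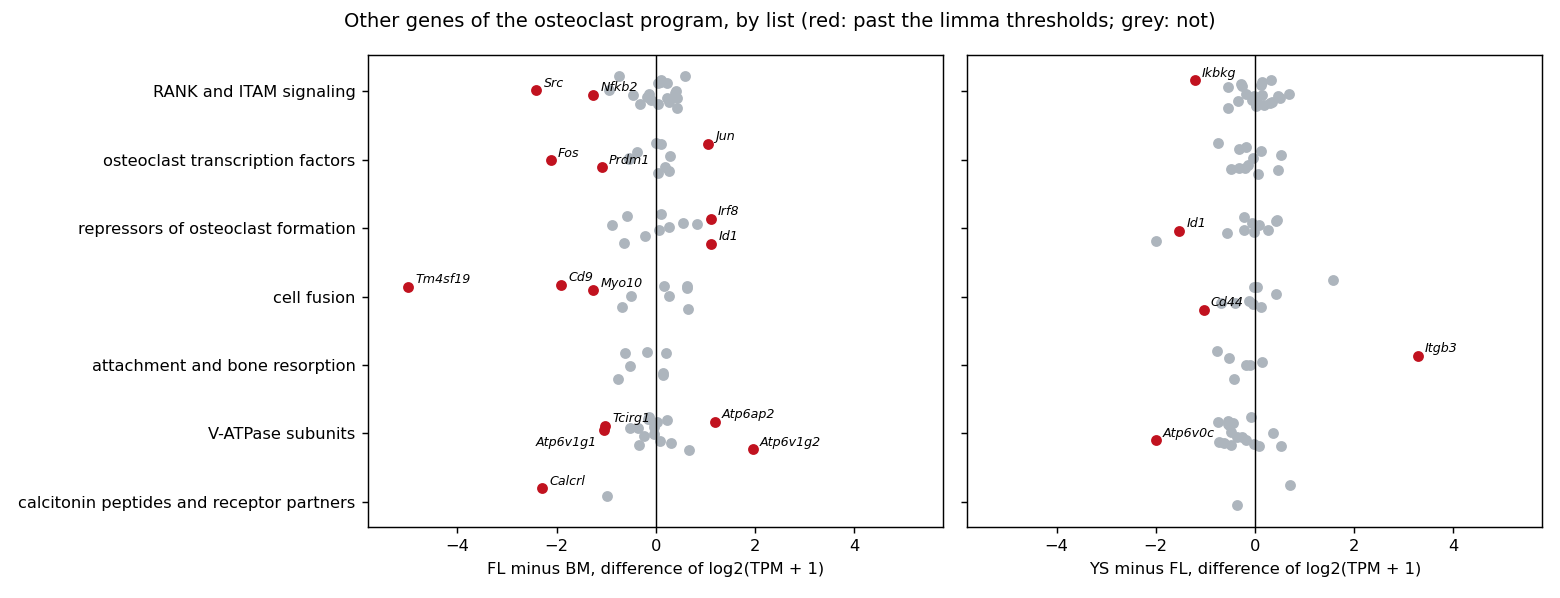
Differences of group means of log2(TPM + 1) for the 81 tested genes of the 7 lists, with FL minus BM lines on the left and YS minus FL lines on the right, red points for called genes and gray points for the others (the vertical position within a list has no meaning). The left panel holds 15 called genes, 10 of them lower in FL lines with Tm4sf19 at -4.99, and the right panel holds 5, with Itgb3 at 3.29. Src and Itgb3, among the red points, passed the filter through 1 group only.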

How the data were processed

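Poly(A)-selected, strand-specific libraries of 3 YS, 3 FL and 3 BM lines were sequenced as single reads. The authors deposited TPM per gene symbol, with one total for all libraries; the submitters' processing notes name Trim Galore 0.6.6, STAR 2.7.9a and RSEM 1.3.3, and the genome build and annotation are not given in the sources used here. TPM hold no read number, so depth is unknown and no counting error is given. Every column matched 1 sample label, and samples were grouped by these labels.

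From the deposited TPM, log2(TPM + 1) was computed and genes reaching 1 TPM in 3 or more of the 9 libraries were tested with limma 3.58.1 in R 4.3.3 (all libraries in one fit, intensity trend, Benjamini-Hochberg adjustment over 11753 genes), with calls made below a false discovery rate of 0.1 and above a 2-fold difference. Limma took the place of the authors' count test because TPM are not counts. The procedure was tested on simulated data. Genes under the filter were compared by two-sided exact permutation tests. YS and BM lines were compared without a test. Named genes were the 10 members, the Atp6v0d2 paralog and the MiT/TFE genes, the 5 genes closest to Ctsk, and, per list, up to 4 called genes with the largest differences in each tested comparison and up to 4 genes past 2-fold in YS against BM lines; Spi1, Tnfsf11, Mmp9 and the marker genes named with values were picked with their values in view. The members and lists were chosen with earlier results of these data known. Promoter windows came from RefSeq (GRCm38.p6), and windows of 6 of the 10 members were used here. As alternatives, a pseudocount of 0.1 or 4, no filter or one of 5 TPM, quantile normalization, median-of-ratios scaling, a fit with no variance trend or with only the groups compared, the replicate number as a block, and the removal of each line were tried. The removal of genes that reached 1 TPM in 1 group only was added after the data were seen.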

Additional observations from a re-analysis of the deposited data

How the results depend on the processing

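Of the FL to BM comparison, the 2 calls among the tested members became 1 with a pseudocount of 4 and 0 with no filter (more genes tested), and 0 to 2 when 1 line was left out; the 15 pathway calls ranged from 8 to 15 when 1 line was left out. Of the YS to FL comparison, the 1 member call became 0 with only the 2 groups in the fit and stayed at 1 when 1 line was left out (1 to 1), and the 5 pathway calls became 2 with no filter, 1 with only the 2 groups and 1 to 5 when 1 line was left out. In the untested YS to BM comparison, 2 to 3 members and 14 to 18 pathway genes were past 2-fold when 1 line was left out. Leaving out genes that reached 1 TPM in 1 group only, an alternative chosen after seeing the data, gave 2 and 1 member calls and 14 and 4 pathway calls. The causes were not tested. The YS to FL difference of Tnfrsf11a, from -0.16 to 0.19 when 1 line was left out, changed sign without YS line 3 (0.19) or FL line 2 (0.03), and that of Atp6v0d2, from -0.89 to 0.055, without YS line 3; none of these differences passed the test. For single genes, 583 of the recomputed values were unchanged, 60 lost the call, 2 gained it, 3 moved by more than the spread among lines and 3 changed sign. Unchanged means, for a tested difference, that it kept direction and side of the threshold. For an untested difference it means that direction was kept and the move was smaller than the spread among lines. Some of these values could not change, since an untested difference does not depend on the filter or on lines of the third group. A gene that stayed uncalled also counts as unchanged, as Mitf in FL against BM lines without BM line 1 (limma adjusted p = 0.11, from 0.031). The count of unchanged values is therefore no measure of how robust the differences are. Quantile normalization moved the median YS to BM difference over all genes by -0.12 and median-of-ratios scaling by -0.11, and no difference of a tested member changed sign under either.

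The lines share numbers 1 to 3 across groups, with no statement that they are pairs, and the deviations of lines with one number correlated at -0.12 to 0.09, so the number was not treated as pairing. With the replicate number as a block, the member calls were 2 and 1 and the pathway calls 15 and 5 in the FL to BM and the YS to FL comparisons.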

Other observations

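The genes closest to Nfatc1 in pattern, chosen after their values were seen, were Fra10ac1, Usmg5, Entpd7, Rpl17 and Cacul1, with root mean square differences of centered log2(TPM + 1) of 0.07 to 0.10 over the 9 libraries. Of these 5 genes, 4 lie on chromosome 19, and Rpl17 lies on chromosome 18, as does Nfatc1 itself (RefSeq). Chromosome 19 also holds 2 of the 5 genes closest to Mitf, 2 for Atp6v0d2 and 1 for Dcstamp, and none for Tnfrsf11a or Ctsk. For Tnfrsf11a, on chromosome 1, 3 of the 5 lie on chromosome 1. The share of each chromosome among all genes tested is not given here, so nothing is read from these counts. The part of chromosomal position in these patterns was not tested. Fra10ac1 ranged from 13.65 to 16.68 TPM over YS lines, from 11.38 to 13.98 TPM over FL lines and from 22.43 to 27.76 TPM over BM lines.

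The genes closest to Dcstamp, chosen in the same way, were Sorl1, Ctsf, Pcdhgb2, Tbx15 and Igf2bp1, with differences of 0.75 to 0.89. Sorl1, a sorting receptor, was at 24.81, 13.24 and 1.28 TPM in the YS lines 1 to 3, did not exceed 0.05 TPM in an FL line, and was at 0.7, 1.01 and 0.11 TPM in the BM lines 1 to 3. Ctsf, which encodes cathepsin F, was at 19.72, 11.23 and 3.35 TPM in the YS lines, 0, 0 and 2.96 TPM in the FL lines, and 5.71, 5.59 and 4.36 TPM in the BM lines. YS line 1 was the highest and YS line 3 the lowest YS line for all 5, as for Dcstamp and for 27.1% of all genes tested. This choice of genes favors a shared order, so nothing is read from it.

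The genes closest to Atp6v0d2 were Steap3, Rilpl1, Gnptab, Myof and Cdc42ep2, with differences of 0.41 to 0.50. Steap3, a metalloreductase of iron uptake, was at 26.96 to 48.9 TPM in the YS lines, 44.88 to 66.21 TPM in the FL lines and 127.06 to 190.23 TPM in the BM lines. BM line 2 was the lowest of its group, as for Atp6v0d2, an order that this choice of genes favors.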
